A study of Homo sapiens with 6 samples.

Results

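The cell cycle and mitosis genes described here are 50 genes picked by symbol from the 58037 gene rows of the deposited table: 19 genes of the G1/S transition and DNA replication, 27 genes of G2 and mitosis, and 4 cyclin-dependent kinase (CDK) inhibitors. The samples were cultures of HepaRG, a human hepatic tumour line that differentiates into hepatocyte-like and biliary-like cells. In the fatty acid group, differentiated cells received palmitate and oleate, mixed 1 to 2 and bound to bovine serum albumin, at 0.5 mM for 72 h; the control group received medium with 0.02% albumin only for the same time. Each group had 3 mRNA libraries. All cells were of passages 15 to 18, were grown for 14 days and differentiated for 14 days, and then spent 5 days in a basal medium that contained insulin and hydrocortisone, so both groups shared these hormones. Whether the replicates were separate cultures is not stated in the labels; the p-values therefore reflect the spread among these 6 samples, and that spread may be technical.

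A dividing cell first commits to replication in G1, when cyclin D and cyclin E kinases phosphorylate the retinoblastoma protein and free E2F factors to switch on replication genes. Later in the cycle, the MuvB complex with B-MYB and FOXM1 switches on the G2 and mitosis genes, whose products build the spindle, hold the checkpoint and divide the cell. HepaRG progenitors proliferate in culture, whereas differentiated hepatocyte-like cells are mostly quiescent. The RNA is that of all cells of a sample in bulk, so fewer or more cells of a type and less or more RNA per cell cannot be told apart.

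Values are FPKM, the fragments of a gene scaled to its exon length and to the library's assigned reads, and means are given ± SD over the 3 libraries of a group. Log2 fold changes are fatty acid minus control on the log2(FPKM + 0.5) scale, which understates the change of low genes, and are given ± SE. A gene was called when its limma p, adjusted (Benjamini-Hochberg) over the 14661 genes whose mean reached 0.5 FPKM, was under 0.05. The libraries held 8.36, 14.36 and 15.94 M reads in the fatty acid group and 8.96, 6.33 and 11.82 M in the control group. Of all genes tested, 8.22% were called higher and 4.68% lower, and the median log2 fold change was 0.04. Hepatocyte markers differed between the groups: 15 of 19 tested hepatocyte markers were called lower and 3 higher, and their summed level was 13917 to 14416 FPKM in the fatty acid group, against 17566 to 18334 FPKM in the control group. ALB, the albumin gene, set the direction of that sum, with means of 7127 FPKM in fatty acid cells and 12025 FPKM in control cells. Without ALB the list summed to 6926 to 7091 FPKM in the fatty acid group and 5733 to 6014 FPKM in the control group, as the abundant SERPINA1, FGB and HP were called higher. KRT19, a marker of biliary and progenitor cells, stood at 316 ± 9.49 and 343 ± 36.6 FPKM in fatty acid and control cells (SD, n = 3 each), and EPCAM, another one, had 0 reads in every library. That list summed to 442 to 457 FPKM in the fatty acid group and 462 to 536 FPKM in the control group, and 1 of its 7 tested genes was called (CD24, lower). Mesenchymal markers summed to 125 to 134 FPKM in the fatty acid group and 108 to 118 FPKM in the control group, with THY1 at 0 reads and 1 of 8 tested genes called (LUM, higher). Immune and endothelial markers summed to 40.2 to 41.6 FPKM in the fatty acid group and 51.3 to 55.9 FPKM in the control group, with CD3E, MS4A1 and CDH5 at 0 reads and 1 of 3 tested genes called (KDR, lower). Without KDR, which averaged 25.6 FPKM in fatty acid cells and 40.7 FPKM in control cells, that list summed to 14.9 to 15.8 FPKM in the fatty acid group and 11.01 to 15.1 FPKM in the control group. Reads of mitochondrially encoded genes made up 9.86%, 9.15% and 11.9% of the fatty acid libraries and 12.2%, 13.7% and 15.0% of the control libraries. The part of these differences in the results below was not tested.

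G1/S and G2/M genes are known for different promoter elements, so their promoter letters were compared. Windows from 250 bases before to 50 bases after the transcription start were found for 40 of the 50 genes in RefSeq (GRCh38.p14). Of these, 4 are printed as examples, each with some of the letters that recur in its group. Capitals mark every match, on either strand, to an E2F site (TTTCCCGC, TTTCGCGC, TTTGCCGC or TTTGGCGC), to a cell cycle homology region or CHR (TTTGAA or TTCGAA), the element that the MuvB complex binds, or to a CCAAT box (CCAAT), the element of NF-Y. TOP2A (chr17:40417847-40418146, minus strand) and CCNB1 (chr5:69166900-69167199, plus strand) are G2/M genes; CDC6 (chr17:40287629-40287928, plus strand) and MCM6 (chr2:135876394-135876693, minus strand) are replication genes.
TOP2A: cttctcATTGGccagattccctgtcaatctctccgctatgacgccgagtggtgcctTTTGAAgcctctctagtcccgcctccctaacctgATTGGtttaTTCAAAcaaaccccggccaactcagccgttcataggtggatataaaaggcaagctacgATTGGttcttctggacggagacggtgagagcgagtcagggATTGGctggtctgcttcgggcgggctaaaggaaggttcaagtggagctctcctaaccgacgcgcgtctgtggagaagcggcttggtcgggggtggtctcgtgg
CCNB1: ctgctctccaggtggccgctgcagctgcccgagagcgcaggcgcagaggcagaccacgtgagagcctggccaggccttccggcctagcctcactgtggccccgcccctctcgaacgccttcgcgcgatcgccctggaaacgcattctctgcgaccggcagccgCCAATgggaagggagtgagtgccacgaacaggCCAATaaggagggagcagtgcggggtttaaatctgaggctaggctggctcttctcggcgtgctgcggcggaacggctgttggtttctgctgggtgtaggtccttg
CDC6: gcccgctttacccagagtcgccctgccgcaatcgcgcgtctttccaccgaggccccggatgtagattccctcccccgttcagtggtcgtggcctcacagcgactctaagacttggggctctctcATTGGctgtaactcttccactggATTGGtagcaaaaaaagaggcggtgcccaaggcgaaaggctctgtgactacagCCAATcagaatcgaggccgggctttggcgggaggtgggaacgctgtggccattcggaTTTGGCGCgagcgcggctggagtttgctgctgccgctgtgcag
MCM6: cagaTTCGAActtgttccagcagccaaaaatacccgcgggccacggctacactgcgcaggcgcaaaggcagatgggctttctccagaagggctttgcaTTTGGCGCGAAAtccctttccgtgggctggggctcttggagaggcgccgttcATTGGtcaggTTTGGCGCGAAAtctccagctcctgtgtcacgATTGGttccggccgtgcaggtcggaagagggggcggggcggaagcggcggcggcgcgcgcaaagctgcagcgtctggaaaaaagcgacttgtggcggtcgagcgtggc

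The TOP2A window held 2 CHR and 4 CCAAT matches. CCNB1 had 2 CCAAT boxes and no CHR letters in its window, which says only that these letters are not there. CDC6 had 1 E2F match and 3 CCAAT boxes. In MCM6 the E2F letters matched 4 times, in 2 overlapping pairs on opposite strands, beside 1 CHR and 2 CCAAT matches. Across the genes with a window, E2F letters were present in 10 of 15 G1/S genes and 2 of 21 G2/M genes, beside 6.64% of 9693 tested genes with a window. CHR letters were present in 2 of 15 G1/S genes and 16 of 21 G2/M genes, beside 16.1% of the tested genes. A CCAAT box was found in 11 of 15 G1/S genes and 18 of 21 G2/M genes, beside 43.6% of the tested genes, and 14 of the 21 G2/M genes held both CHR and CCAAT, beside 6.85%. Of the inhibitors, CDKN3 alone of 4 held CHR letters. A gene with several windows was counted when any of them held the letters, and the matches are descriptions of sequence, not of binding.

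In fatty acid cells most G2/M genes were called higher, among them the topoisomerase gene TOP2A, the checkpoint genes TTK and BUB1B and the cytokinesis gene ANLN. The mean of TOP2A was 27.8 ± 2.47 FPKM in fatty acid cells, 1.57 times the 17.7 ± 0.242 FPKM of control cells. Some replication genes were called higher too, CDC6 and RRM2 with the smallest adjusted p, whereas cyclin D1 was called lower and the inhibitors CDKN1A, CDKN1B and CDKN2A were not called. Of the 49 tested genes, 25 were called, beside 12.9% of all genes tested: 24 were higher and 1 lower, beside 8.22% and 4.68%. Among the 26 tested G2/M genes, 17 were called higher and 0 lower, 9 were not called, and the median log2 fold change was 0.47, beside 0.04 over all genes tested. Of the 19 G1/S and replication genes, 6 were called higher, 1 lower and 12 were not called, with a median of 0.18. The difference between the lists was not tested. The third list, of 4 CDK inhibitors, had 1 gene called higher, CDKN3. In 23 of the 26 G2/M genes every fatty acid library was above every control library, as it was in 7 of the 19 G1/S genes; such a separation upward was seen in 23.7% of all genes tested, and downward in 13.3%. Without fatty acid library 1, the called counts were 7 G2/M genes, 1 G1/S gene and 0 inhibitors, and without fatty acid library 2 they were 8, 0 and 0, with 463 and 484 genes called in all, against 1891 with every library. Leaving out control library 3 gave 14, 2 and 0, with 1041 genes called in all.

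**Figure D1:**
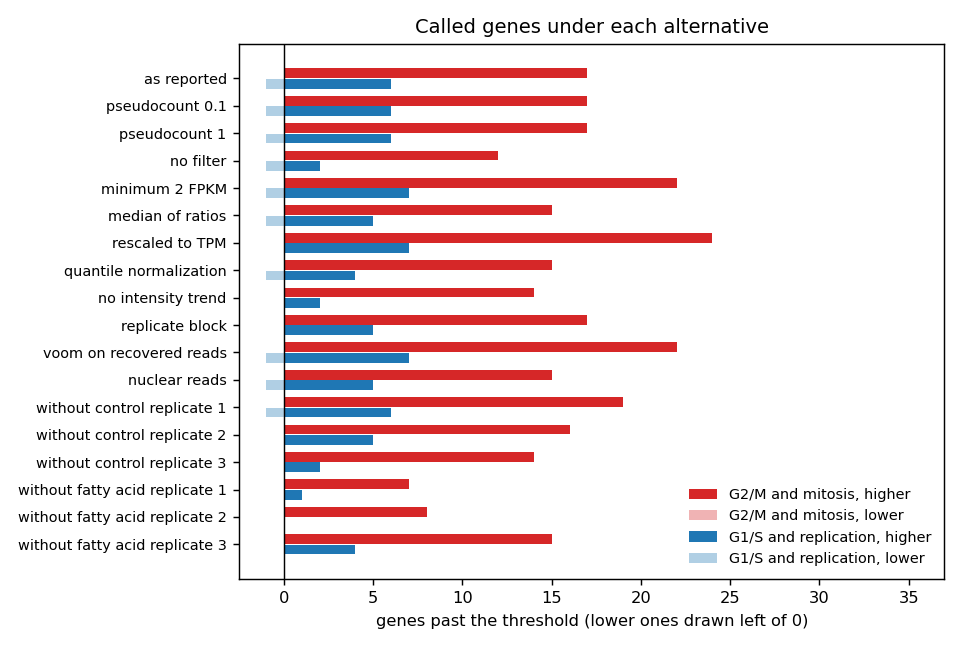
Number of G2/M (red) and G1/S (blue) genes past the threshold as reported and under each alternative, with genes called higher right of 0 and genes called lower, in pale colour, left of 0. The G2/M bars run from 7 to 24 genes, with no gene left of 0, and are shortest when fatty acid replicate 1 or 2 is left out.

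**Figure D2:**
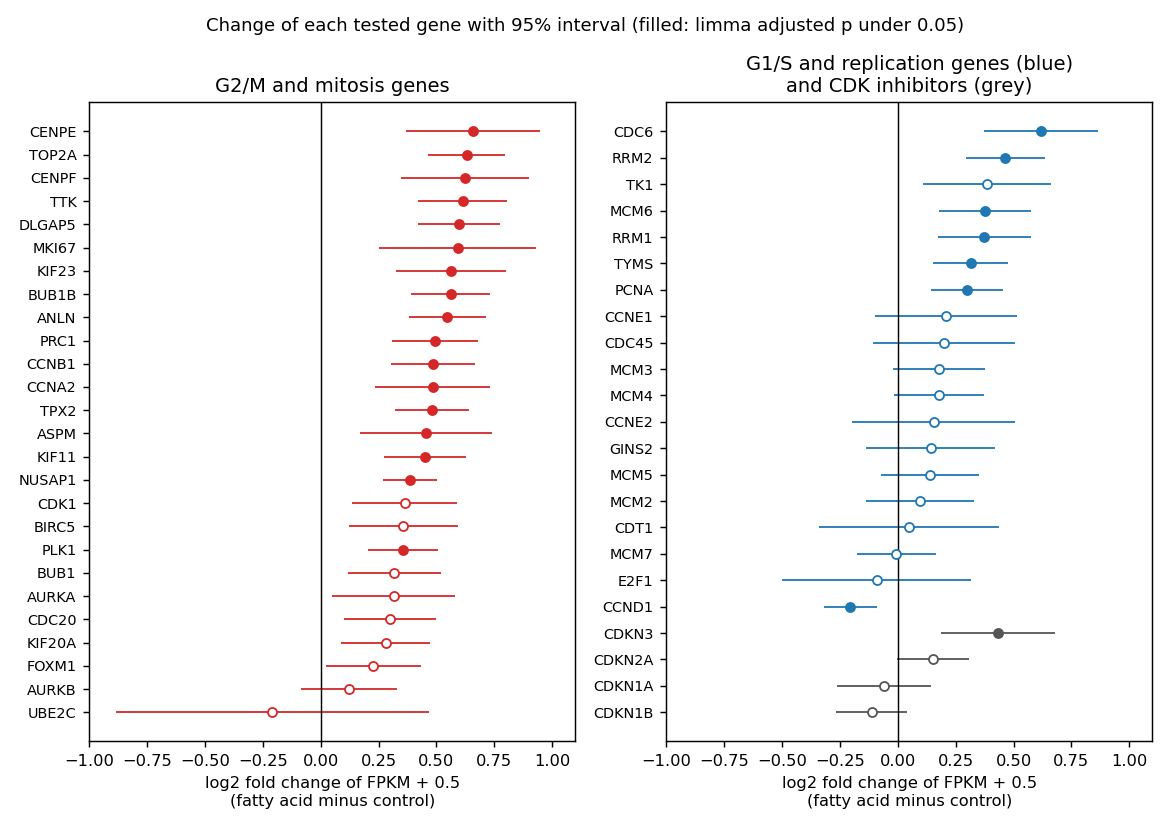
The log2 fold change of each tested gene (fatty acid minus control, log2(FPKM + 0.5) scale, with its 95% interval) is plotted for G2/M genes at left and for G1/S genes and inhibitors at right; filled points are called genes. G2/M genes lie between -0.21 (UBE2C) and 0.66 (CENPE), and 25 of 26 are above 0; G1/S genes lie between -0.21 (CCND1) and 0.62 (CDC6).

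Summed over their list, G2/M genes reached 293, 288 and 269 FPKM in the fatty acid libraries, against 208, 197 and 208 FPKM in the control libraries. G1/S genes summed to 318, 308 and 296 FPKM in the fatty acid libraries and to 279, 262 and 249 FPKM in the control libraries. The groups did not overlap in either sum. On the log2 scale, where each gene counts alike, the mean level of the 26 G2/M genes was 3.24, 3.23 and 3.14 in the fatty acid libraries and 2.76, 2.75 and 2.83 in the control libraries, a difference of 0.42 with a pooled SD between libraries of 0.0477. The mean of the 19 G1/S genes was 3.22, 3.20 and 3.15 in the fatty acid libraries and 3.08, 2.97 and 2.90 in the control libraries, a difference of 0.20 with a pooled SD of 0.0685.

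**Figure D3:**
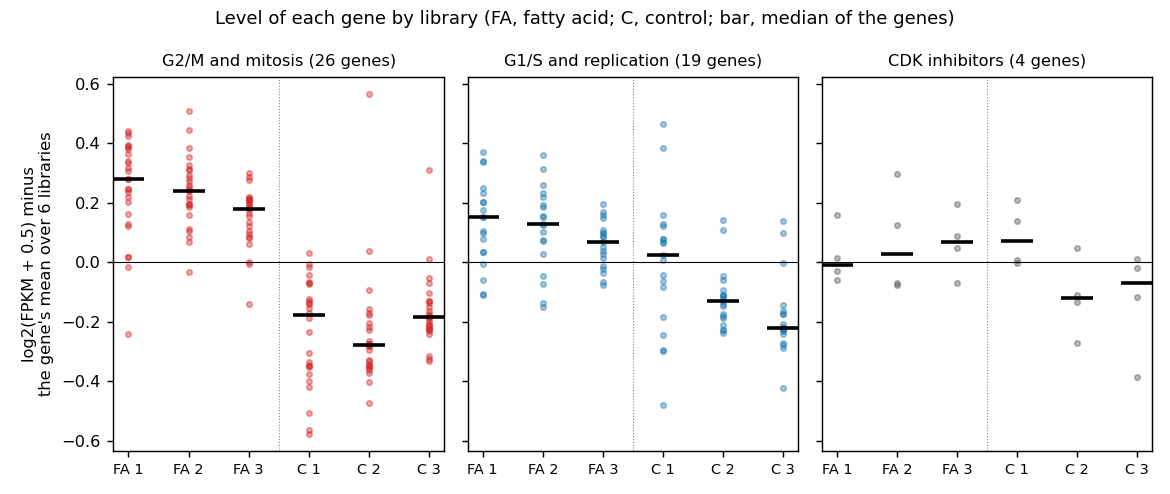
Each point is 1 gene in 1 library, as log2(FPKM + 0.5) minus that gene's mean over the 6 libraries, and the bar is the median of the genes; fatty acid libraries 1 to 3 stand left of control libraries 1 to 3. The G2/M medians of the fatty acid libraries are all above 0 and those of the control libraries all below 0, whereas the G1/S median of control library 1 lies just above 0.

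CCND1 was the only one of the 50 genes that was called lower. CCND1 encodes cyclin D1, the partner of CDK4 and CDK6 that responds to growth signals (chromosome 11, 69641087 to 69654474 in GRCh38). Its level was 29.7, 29.1 and 30.6 FPKM in the fatty acid libraries, against 33.6, 35.4 and 34.3 FPKM in the control libraries. The groups did not overlap, and the log2 fold change was -0.21 ± 0.05 (adjusted p = 0.0363). The call was lost without control library 2 or 3 (0.0779 and 0.0783) and without fatty acid library 1, 2 or 3 (0.141, 0.147 and 0.0756). It was also lost when values were rescaled to TPM (0.484), where the log2 fold change was -0.07, without the intensity trend (0.0912) and with the replicate block (0.0678). The other G1 cyclins among the 50 genes, and E2F1, were low and not called. CCNE1 and CCNE2, the cyclins E that drive entry into S phase, averaged 1.47 ± 0.212 and 1.22 ± 0.203 FPKM in fatty acid cells and 1.2 ± 0.136 and 1.05 ± 0.19 FPKM in control cells (SD, n = 3 each). E2F1, an activating E2F factor, had 2.91, 2.503 and 2.78 FPKM in the fatty acid libraries and 4.10, 2.59 and 2.37 FPKM in the control libraries. Control replicate 1 stood above the other 5 libraries, and without it the log2 fold change of E2F1 was 0.12, against -0.09 with it.

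Origin licensing loads the MCM helicase onto DNA in G1, and CDC6 and CDT1 are its loaders. CDC6 (chromosome 17, 40287633 to 40304657) had 3.67, 3.63 and 3.19 FPKM in the fatty acid libraries, against 1.81, 2.25 and 2.26 FPKM in the control libraries. Every fatty acid library was above every control library, and the log2 fold change was 0.62 ± 0.11 (adjusted p = 0.0126), the largest among the G1/S genes. CDT1 averaged 3.53 ± 0.179 FPKM in fatty acid cells and 3.48 ± 1.04 FPKM in control cells, with a log2 fold change of 0.05, which was -0.034 without control library 2 and -0.075 without control library 3.

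Of the 6 MCM helicase subunits, MCM6 was called. Its values were 9.38, 10.2 and 8.39 FPKM in the fatty acid libraries and 6.75, 7.56 and 6.82 FPKM in the control libraries. The groups did not overlap, and the log2 fold change was 0.38 ± 0.09 (adjusted p = 0.0311). MCM2 had 7.02, 6.87 and 6.32 FPKM in the fatty acid libraries and 7.30, 5.90 and 5.70 FPKM in the control libraries, so control library 1 was above all 3 fatty acid libraries. Its log2 fold change was 0.10, with an interval from -0.14 to 0.33. MCM3, MCM4 and MCM5 had log2 fold changes of 0.18, 0.18 and 0.14 and were not called (adjusted p = 0.199, 0.193 and 0.335), though MCM3 was called without control library 1 (0.0435). MCM7 stood at 23.5 ± 0.995 and 23.6 ± 2.03 FPKM in fatty acid and control cells, with a log2 fold change of -0.01, whose interval ran from -0.18 to 0.16; the sign was positive without control library 1 (0.0555), without fatty acid library 2 (0.028) and after rescaling to TPM (0.13). The helicase cofactors CDC45 and GINS2 had log2 fold changes of 0.20 and 0.14 and were not called. The CDC6 call was lost without fatty acid library 1 or 2 (0.0669 and 0.065), and that of MCM6 without either of these (0.117 each) and without control library 1 or 3 (0.0595 and 0.083).

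Of the 5 genes of nucleotide supply and the sliding clamp, 4 were called higher, beside 8.22% of all genes tested, and in all 5 the groups were apart upward, beside 23.7%. RRM2, the regulated subunit of ribonucleotide reductase (chromosome 2, 10122328 to 10131419), had 23.8, 22.5 and 20.04 FPKM in the fatty acid libraries and 16.4, 15.9 and 15.2 FPKM in the control libraries. Its log2 fold change was 0.46 ± 0.07 (adjusted p = 0.00934). PCNA, the clamp that holds DNA polymerase on its template (chromosome 20, 5114953 to 5126626), had 88.6, 89.2 and 83.5 FPKM in the fatty acid libraries and 75.1, 72.6 and 64.6 FPKM in the control libraries. PCNA was the second most abundant of the 50 genes per length, and its log2 fold change was 0.30 ± 0.07 (adjusted p = 0.0293). TYMS, thymidylate synthase, had 52.4, 48.0 and 47.1 FPKM in the fatty acid libraries and 42.7, 38.0 and 37.6 FPKM in the control libraries, a log2 fold change of 0.32 ± 0.07 (adjusted p = 0.0284). Of the exon bases of TYMS, 46.6% are shared with other genes of the table, all on the opposite strand, and the sources used here do not give the strand setting of the read counting. RRM1, the other reductase subunit, averaged 19.0 ± 1.91 FPKM in fatty acid cells and 14.5 ± 0.987 FPKM in control cells (adjusted p = 0.0324). TK1, the salvage enzyme thymidine kinase, had 12.4, 12.5 and 12 FPKM in the fatty acid libraries and 11.3, 8.996 and 7.86 FPKM in the control libraries, and was not called (log2 fold change 0.39 ± 0.12, adjusted p = 0.0729; 0.00826 without control library 1). RRM2 lost its call without fatty acid library 2 (0.0531). Without fatty acid library 1 or 2 the adjusted p of PCNA was 0.12 and 0.116, of TYMS 0.118 and 0.0922 and of RRM1 0.111 and 0.102. Without control library 3 these were 0.0548, 0.0766 and 0.0681. PCNA and TYMS were at 0.0591 each without fatty acid library 3, TYMS at 0.0637 without control library 2, and RRM1 at 0.0589 without control library 1.

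Mitotic entry is driven by cyclins A and B with CDK1, under PLK1 and the Aurora kinases. CCNB1, cyclin B1 (chromosome 5, 69167010 to 69178245), had 19.3, 18.2 and 16.7 FPKM in the fatty acid libraries, against 13.8, 12.5 and 11.9 FPKM in the control libraries. The groups did not overlap, and the log2 fold change was 0.48 ± 0.08 (adjusted p = 0.01). CCNA2, cyclin A2, had 10.8, 11.6 and 10.8 FPKM in the fatty acid libraries and 8.85, 6.55 and 8.10 FPKM in the control libraries, a log2 fold change of 0.48 ± 0.11 (adjusted p = 0.0283). PLK1, polo-like kinase 1, had 6.43, 6.76 and 6.83 FPKM in the fatty acid libraries and 5.32, 5.01 and 4.99 FPKM in the control libraries, a log2 fold change of 0.35 ± 0.06 (adjusted p = 0.0157). In all 3 genes each fatty acid library was above each control library. CDK1, the kinase itself, had 7.60, 7.42 and 6.73 FPKM in the fatty acid libraries and 6.02, 4.78 and 5.85 FPKM in the control libraries. These groups did not overlap either, but the test just missed the threshold (log2 fold change 0.36 ± 0.10, adjusted p = 0.0502). The threshold was met without control library 1 (0.0444) but with no other library left out. FOXM1, the transcription factor of the G2/M programme, had a log2 fold change of 0.23 (adjusted p = 0.131), AURKA 0.31 (0.113) and AURKB 0.12 (0.388), and none of them was called. CCNB2 was almost unread, with 4 reads in the fatty acid group and 5 in the control group, and was not tested. The table lists a sense-overlapping gene, RP11-59H7.3, over the end of CCNB2, at 0 in every library, and how reads of overlapping genes were assigned is not given, so whether the 9 reads reflect a low level or the counting was not tested. The CCNB2 promoter window held both CHR and CCAAT letters. Without fatty acid library 1 or 2, the adjusted p of CCNB1 was 0.0556 and 0.0533, of CCNA2 0.0958 and 0.111, and of PLK1 0.0607 and 0.077. CCNA2 and PLK1 also missed the threshold without fatty acid library 3 (0.0707 and 0.0575), and CCNA2 without control library 3 (0.0614).

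**Figure D4:**
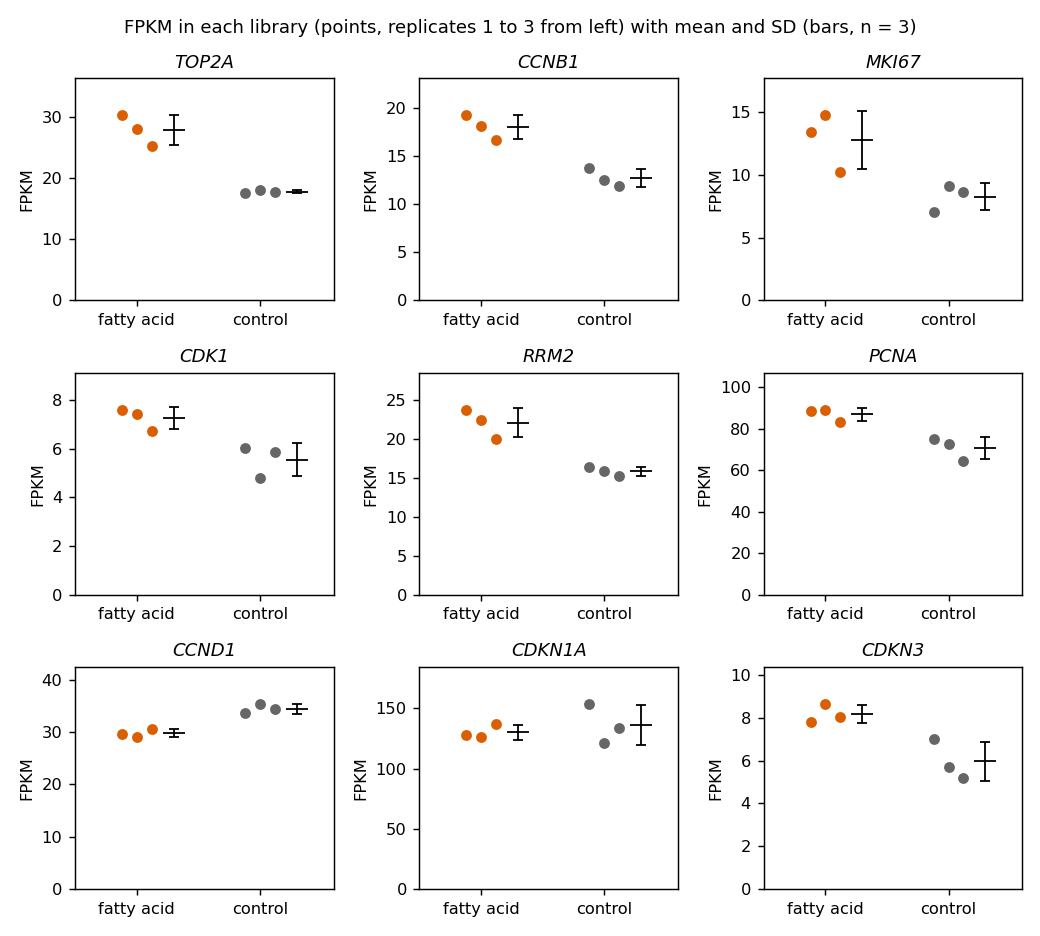
FPKM of 9 genes in each library (points, libraries 1 to 3 from the left), with the mean and SD of 3 libraries, fatty acid at left and control at right of each panel. TOP2A, CCNB1, MKI67, CDK1, RRM2, PCNA and CDKN3 have every fatty acid library above every control library, CCND1 has every fatty acid library below, and the CDKN1A groups overlap.

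The spindle checkpoint halts anaphase until kinetochores, the protein plates on centromeres, are attached to microtubules. In this set 4 of 5 genes were called higher, beside 8.22% of all genes tested. TTK, the kinase that starts checkpoint signalling (chromosome 6, 80003887 to 80042527), had 4.31, 3.83 and 3.97 FPKM in the fatty acid libraries, against 2.39, 2.38 and 2.62 FPKM in the control libraries. BUB1B, which encodes the checkpoint protein BUBR1, had 6.89, 6.91 and 6.87 FPKM in the fatty acid libraries, against 4.11, 4.73 and 4.71 FPKM in the control libraries. Of the exon bases of BUB1B, 10.2% are shared with a read-through gene on the same strand. Neither gene's groups overlapped, and the log2 fold changes were 0.61 ± 0.08 for TTK (adjusted p = 0.00509) and 0.56 ± 0.07 for BUB1B (adjusted p = 0.00468). CENPE, a kinetochore motor, had 3.91, 3.89 and 3.41 FPKM in the fatty acid libraries and 1.76, 2.38 and 2.47 FPKM in the control libraries. Its log2 fold change of 0.66 ± 0.12 (adjusted p = 0.0173) was the largest of the 49 tested genes. CENPF, a kinetochore and nuclear matrix protein, had 8.25, 8.38 and 6.30 FPKM in the fatty acid libraries and 4.38, 4.68 and 5.24 FPKM in the control libraries (0.62 ± 0.12, adjusted p = 0.0183). BUB1, the partner kinase, missed the threshold at 0.32 ± 0.09 (adjusted p = 0.0506), with groups that did not overlap. TTK and BUB1B were called with each library left out in turn; CENPE and CENPF were not called without fatty acid library 1 (0.0811 and 0.0832) or 2 (0.079 and 0.0798).

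At the end of the checkpoint, the anaphase-promoting complex degrades its substrates with CDC20 as activator and UBE2C as ubiquitin-conjugating enzyme, and neither gene was called. CDC20 averaged 24.0 ± 0.959 FPKM in fatty acid cells and 19.5 ± 2.28 FPKM in control cells, with groups that did not overlap (0.30 ± 0.09, adjusted p = 0.0606; 0.0108 without control library 1). UBE2C was barely read, at 0.668 ± 0.130 FPKM in fatty acid cells and 0.917 ± 0.516 FPKM in control cells, from 34 and 31 reads in all. Its log2 fold change was -0.21 with an interval from -0.88 to 0.47, and 0.021 without control library 2. The upper end of the UBE2C interval was close to the G2/M median of 0.47. Whether the few reads hid a change like that of other G2/M genes was not tested.

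TOP2A, which encodes the topoisomerase that untangles sister chromatids (chromosome 17, 40388516 to 40417950), had the smallest adjusted p of the 49 tested genes. Its level was 30.2, 28.0 and 25.3 FPKM in the fatty acid libraries, against 17.5, 18.0 and 17.8 FPKM in the control libraries. The lowest fatty acid library stood well above the highest control library, and the log2 fold change was 0.63 ± 0.07 (adjusted p = 0.00228). MKI67, the proliferation antigen that coats mitotic chromosomes (chromosome 10, 128096659 to 128126385), had 13.4, 14.7 and 10.2 FPKM in the fatty acid libraries and 7.04, 9.10 and 8.66 FPKM in the control libraries. The groups did not overlap but the fatty acid libraries were spread, and the log2 fold change was 0.59 ± 0.15 (adjusted p = 0.039). The MKI67 call was lost without control library 1 or 3 (0.0772 and 0.0784) and without fatty acid library 1 or 2 (0.14 and 0.134). It was also lost with no filter (0.104), by the median of ratios (0.0532), by quantiles (0.0574), without the trend (0.072) and with nuclear reads (0.0545). BIRC5, survivin of the chromosomal passenger complex, averaged 8.80 ± 0.741 FPKM in fatty acid cells and 6.77 ± 0.810 FPKM in control cells and was not called (0.36 ± 0.10, adjusted p = 0.0569; 0.0413 without control library 1).

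The spindle, midzone and cytokinesis genes had 8 of 9 members called higher, beside 8.22% of all genes tested, and in all 9 the groups were apart upward, beside 23.7%. TPX2, which nucleates spindle microtubules and activates Aurora A, had 22.9, 22.7 and 21.4 FPKM in the fatty acid libraries, against 16.9, 14.6 and 16.2 FPKM in the control libraries (log2 fold change 0.48 ± 0.07, adjusted p = 0.00632). NUSAP1, which bundles spindle microtubules, had 23.8, 23.4 and 22.9 FPKM in the fatty acid libraries and 17.8, 18.1 and 17.4 FPKM in the control libraries (0.39 ± 0.05, adjusted p = 0.00426). DLGAP5, which stabilises kinetochore fibres, had 7.50, 7.56 and 6.76 FPKM in the fatty acid libraries and 4.44, 4.52 and 4.94 FPKM in the control libraries (0.60 ± 0.08, adjusted p = 0.00402). These 3 genes were called under each of the 17 alternative settings, as were ANLN, TTK, BUB1B and TOP2A. ANLN, the anillin scaffold of the contractile ring (chromosome 7, 36389806 to 36453791), had 22.6, 22.6 and 20.6 FPKM in the fatty acid libraries and 13.8, 14.8 and 16.0 FPKM in the control libraries (0.55 ± 0.07, adjusted p = 0.00433).

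Motors and midzone proteins followed the same direction. KIF11, the motor that pushes spindle poles apart, had 7.48, 7.62 and 6.996 FPKM in the fatty acid libraries and 5.49, 4.81 and 5.50 FPKM in the control libraries (0.45 ± 0.08, adjusted p = 0.0122). KIF23, a motor of the central spindle, had 6.52, 5.54 and 5.37 FPKM in the fatty acid libraries and 3.69, 3.42 and 4.21 FPKM in the control libraries (0.56 ± 0.10, adjusted p = 0.0154). PRC1, which bundles antiparallel midzone microtubules, had 11.4, 9.87 and 10.3 FPKM in the fatty acid libraries and 7.91, 7.18 and 6.91 FPKM in the control libraries (0.49 ± 0.08, adjusted p = 0.0105). In these 3 genes each fatty acid library was above each control library. ASPM, a spindle pole protein, averaged 4.52 ± 0.700 and 3.15 ± 0.327 FPKM in fatty acid and control cells, and its adjusted p of 0.04996 stood just under the threshold. KIF20A, a cytokinesis motor, stood at 13.5 ± 0.825 and 11.03 ± 1.03 FPKM in fatty acid and control cells and was not called (0.28 ± 0.08, adjusted p = 0.0641; 0.0355 without control library 1). KIF11 and KIF23 lost their calls without fatty acid library 1 (0.0656 and 0.0668) or 2 (0.0652 and 0.0576), and PRC1 without fatty acid library 1 (0.0541). The ASPM call was lost when any 1 of 5 libraries was left out, with an adjusted p of 0.169 and 0.167 without fatty acid library 1 or 2 and of 0.102, 0.0519 and 0.113 without control library 1, 2 or 3.

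CDK inhibitors hold the kinases in check, and the 2 classical ones of the CIP/KIP family were not called. CDKN1A, the p53-induced inhibitor p21 (chromosome 6, 36676460 to 36687339), was the most abundant of the 50 genes per length. It had 127, 126 and 137 FPKM in the fatty acid libraries and 154, 121 and 134 FPKM in the control libraries. The groups overlapped, and the log2 fold change was -0.06 with an interval from -0.26 to 0.15 (adjusted p = 0.687); it was 0.031 without control library 1 and 0.077 after rescaling to TPM. CDKN1B, the inhibitor of cyclin E and cyclin A kinases, had 7.53, 7.31 and 7.32 FPKM in the fatty acid libraries and 8.53, 7.98 and 7.58 FPKM in the control libraries. Each fatty acid library was below each control library, but the gene was not called (-0.11 ± 0.07, adjusted p = 0.288), and the log2 fold change was 0.016 after rescaling to TPM. CDKN2A, whose transcripts encode an inhibitor of CDK4 and CDK6 and the ARF protein, had 6.77, 7.35 and 7.14 FPKM in the fatty acid libraries and 6.67, 6.17 and 6.14 FPKM in the control libraries. Its groups were apart upward and it was not called (0.15 ± 0.07, adjusted p = 0.173). CDKN3 encodes a phosphatase that removes the activating phosphate of CDKs and is known to be transcribed with the mitotic genes in cycling cells. It had 7.81, 8.65 and 8.03 FPKM in the fatty acid libraries and 6.99, 5.68 and 5.21 FPKM in the control libraries, without overlap (0.43 ± 0.11, adjusted p = 0.039). The CDKN3 call was lost without control library 2 or 3 (0.0804 and 0.0923) and without fatty acid library 1, 2 or 3 (0.11, 0.142 and 0.0891).

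Among the G2/M genes the longer transcripts had the larger log2 fold changes, a trend that all genes tested also showed. Spearman's rho between gene length and log2 fold change was 0.57 across the 26 G2/M genes, -0.11 across the 19 G1/S genes and 0.17 across all genes tested; genes of the same libraries are not independent replicates. In the length class of 2000 to 4000 bases the G2/M median was 0.36 (11 genes, 5 called), beside 0.01 for all genes of the class. Between 4000 and 6000 bases it was 0.47 (6 genes, 5 called), beside 0.05. Between 6000 and 8000 bases it was 0.55 (4 genes, 3 called), beside 0.07. Above 8000 bases it was 0.61 (CENPE, CENPF, MKI67 and ASPM, all called), beside 0.10. Of all genes in these classes, from 2000 bases upward, 8.65%, 10.25%, 10.96% and 8.98% were called higher. In these 4 classes the G2/M median was above that of all genes of like length; in the class up to 2000 bases the 1 G2/M gene, UBE2C, stood at -0.21, beside -0.05 for all genes. The part of length in the result was not tested.

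**Figure D5:**
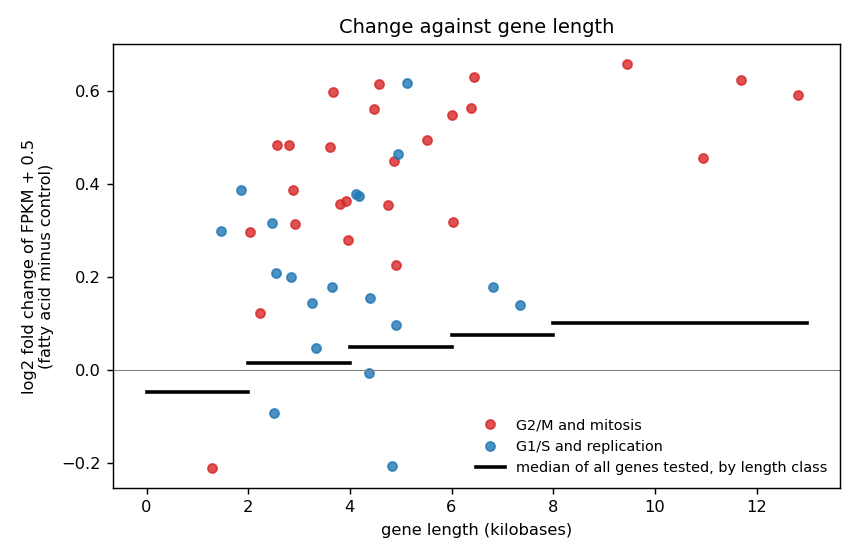
Log2 fold change (fatty acid minus control) against gene length in kilobases for the G2/M genes (red) and the G1/S genes (blue), with the median of all genes tested in 5 length classes as black bars. All 4 G2/M genes above 8000 bases exceed 0.4, and the black bars climb from -0.05 in the shortest class to 0.10 in the longest.

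Further genes of the cycle, not among the 50, were read from lists of the same pathways. Of 59 other mitosis genes, 27 were called higher and 0 lower, beside 8.22% and 4.68% of all genes tested, with a median log2 fold change of 0.31. The count was 42 by TPM, 17 with nuclear reads, 17 without the intensity trend and 8 with no filter. Over all genes, these settings called 2612, 705, 642 and 640 genes higher, against 1205 as reported. CDCA8, borealin of the chromosomal passenger complex, averaged 11.6 ± 0.818 FPKM in fatty acid cells and 7.84 ± 0.139 FPKM in control cells (0.54 ± 0.07, adjusted p = 0.0037). RACGAP1, the partner of KIF23 in the central spindle, averaged 10.6 ± 0.457 FPKM in fatty acid cells and 7.67 ± 0.146 FPKM in control cells (0.44 ± 0.06, adjusted p = 0.00553). SMC2 and SMC4, the core subunits of condensin, had log2 fold changes of 0.49 ± 0.08 and 0.40 ± 0.06 (adjusted p = 0.00867 and 0.00976). SMC4 was not called without fatty acid library 1 (0.058). The count of this list was 5, 6 and 9 without fatty acid library 1, 2 or 3 and 14 without control library 3. In the same order, 230, 239, 518 and 634 of all genes were called higher, against 1205 as reported.

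Of 44 other replication genes, 4 were called higher and 0 lower, with a median of 0.18, a share of 9.09% beside the 8.22% of all genes. The count differed between settings, with 15 called higher by TPM, 8 higher and 1 lower by limma voom, and 2 higher by the median of ratios. Over all genes, TPM called 2612 higher, voom 1846 higher and 1153 lower, and the median of ratios 779 higher, against 1205 higher as reported. DBF4, the activator of the CDC7 kinase that fires origins, averaged 3.71 ± 0.154 FPKM in fatty acid cells and 2.46 ± 0.138 FPKM in control cells (0.51 ± 0.08, adjusted p = 0.00953; 0.0555 without fatty acid library 1). RFC1 of the clamp loader (0.34), ORC2 of the origin recognition complex (0.28) and the replisome protein WDHD1 (0.39) were the other 3. Of 29 tested genes of retinoblastoma and E2F control, 4 were called higher and 0 lower, with a median of 0.20. The share called higher was 13.8%, beside 8.22% of all genes tested, of which 4.68% were called lower. The called genes included MYBL2, which encodes the B-MYB partner of MuvB (0.66 ± 0.13, adjusted p = 0.0219), and RB1 itself (0.24). The others were the CDK subunit CKS1B (0.51) and E2F5, a repressing E2F factor (0.41). MYBL2 averaged 2.75 ± 0.187 FPKM in fatty acid cells and 1.57 ± 0.338 FPKM in control cells, and was not called without fatty acid library 1, 2 or 3 (0.0954, 0.07 and 0.0698). In this list 10 genes were called higher by TPM, 7 higher and 2 lower by voom, 1 higher by the median of ratios and 1 higher with nuclear reads. In the same order, 2612, 1846, 779 and 705 of all genes were called higher. RB1, CKS1B, E2F5, ORC2 and WDHD1 lost their calls whichever fatty acid library was left out, as did RFC1 (0.0903, 0.0821 and 0.0674). Without fatty acid library 1, 2 or 3 the replication list had 0, 1 and 1 calls. The retinoblastoma and E2F list had 0 in each case. Without control library 3 the replication list had 2 calls and the retinoblastoma and E2F list 1. Over all genes, 230, 239, 518 and 634 were called higher without these libraries in turn, against 1205 as reported.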

How the data were processed

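Libraries were made with a stranded mRNA kit, with an input of 100 ng of RNA, per the labels' protocols. STAR 2.5.2, featureCounts, Subread 1.5.1 and GRCh38 are named in the submitters' processing notes; whether reads were counted by strand is not given in these sources. The authors deposited FPKM values, with gene length and position per the file headers. FPKM divides reads by gene length and by the library's assigned reads, so each value depends on the share taken by other genes. All values printed finely enough came out as whole reads (100%, tolerance 0.02 reads beyond rounding), which gave the depths.

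Groups and replicate numbers came from the titles. Fatty acid was compared with control in all 6 libraries with no covariate: limma 3.58.1 in R 4.3.3, with an intensity trend, on log2(FPKM + 0.5), for genes whose mean reached 0.5 FPKM, two-sided, with Benjamini-Hochberg adjustment at 0.05 over 14661 genes. Every adjusted p in the text is from limma. An exact permutation test of 3 against 3 libraries cannot go below 0.1. Tested on simulated data over 14696 genes, the fit called 47% of genes changed 1.5-fold and 80.4% of those changed 2-fold. Of its 141 calls 11.3% were unchanged genes, a larger share than the threshold of 0.05 aims at. Every simulated gene had the same dispersion (0.00227), and 200 genes were changed, as many up as down. In the data 1205 genes were called higher and 686 lower, so these rates may not hold there.

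Of the 50 genes, 16 share exon bases with other genes of the table in GENCODE 29, 6 of them 10% or more (BUB1B, CCND1, PLK1, FOXM1, CCNE2 and TYMS). Genes of the table that GENCODE 29 does not list were left out of this comparison. The genes and lists were chosen with earlier results of these data known. Values in every library are given for up to 20 called genes by adjusted p, the inhibitors and a short panel; for each further list, up to 4 called genes with the smallest adjusted p are named, apart from a few that the counts include but that are not reported here. E2F1 and TK1 were given in every library after their values were seen. Figures were drawn with matplotlib 3.10.9.

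Alternatives were pseudocounts of 0.1 and 1, no filter, a mean of 2 FPKM as the lower limit, other scalings (quantiles, median of ratios, TPM), no trend, the replicate number as a block, limma voom on the recovered reads, and each library left out. Scaling to nuclear reads was added after seeing the data.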

Additional observations from a re-analysis of the deposited data

How the results depend on the processing

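None of the 25 called genes turned its direction under any of the 17 alternatives, and 7 were called under each of them: TTK, BUB1B, TOP2A, TPX2, NUSAP1, ANLN and DLGAP5. No G2/M gene was called lower in any setting. The G2/M count ran from 7 to 19 with 1 library left out, against 17, and was 12 with no filter, 15 by the median of ratios, 24 by TPM, 14 without the trend and 22 by voom. The G1/S count, 7 with every library, ran from 0 to 7 with 1 library left out, and was 3 with no filter and 2 without the trend. The inhibitor count ran from 0 to 1 with 1 library left out, and was 0 with no filter, without the trend, with the replicate block and with nuclear reads. The count over all genes, 1891, ran from 463 to 1629 with 1 library left out, and was 977 with no filter, 3020 by TPM, 1101 without the trend and 2999 by voom. Calls split into 1205 higher and 686 lower as deposited, 779 and 818 by the median of ratios, 758 and 772 by quantiles, 705 and 828 with nuclear reads, and 2612 and 408 by TPM, which moved the median of all genes to 0.16. The cause of these changes was not tested, beyond that no filter tests more genes and a left-out library leaves fewer samples.

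Besides left-out libraries, calls were lost with no filter (MCM6, PCNA, RRM1, TYMS, CCNA2, MKI67, CENPE, CENPF, ASPM and CDKN3), without the trend (CCND1, MCM6, PCNA, RRM1, TYMS, CCNA2, MKI67, ASPM and CDKN3), with the block (CCND1, RRM1, CCNA2, ASPM and CDKN3), by quantiles (MCM6, RRM1, MKI67 and ASPM), by the median of ratios (RRM1, MKI67 and ASPM), with nuclear reads (RRM1, MKI67, ASPM and CDKN3), by TPM (CCND1) and at a pseudocount of 1 (ASPM). Their adjusted p ran from 0.0501 to 0.125, and was 0.484 for CCND1 by TPM. Some genes not called as reported were called elsewhere. CDK1, BIRC5 and KIF20A were called under 5 of the 17 alternatives and TK1 and CDC20 under 4. BUB1 was called under 3, and MCM3, FOXM1 and AURKA under 1 each. Among the left-out libraries, only the removal of control library 1 gave any of these calls.

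The G2/M median log2 fold change, 0.47, was 0.59 by TPM and 0.42 with nuclear reads, and ran from 0.41 to 0.50 with 1 library left out. The G1/S median, 0.18, was 0.31 by TPM and ran from 0.12 to 0.25 with 1 library left out. Genes that were not called and turned sign were E2F1 (0.024 by TPM, and from -0.22 to 0.12 with 1 library left out), CDT1 (from -0.075 to 0.25 with 1 library left out), MCM7 (0.13 by TPM, and from -0.066 to 0.0555), UBE2C (from -0.54 to 0.021), CDKN1A (0.077 by TPM, and from -0.14 to 0.031) and CDKN1B (0.016 by TPM).

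Same-numbered libraries deviated together with correlations of 0.0122, 0.0836 and 0.0224. Fatty acid replicates 1 and 2 correlated best with the control of the same number, and fatty acid replicate 3 with control replicate 1 (0.0731). Values this small, from 3 libraries per group, cannot show whether same-numbered libraries were paired. With the replicate block, 17 G2/M genes, 5 G1/S genes and 1474 genes in all were called. Of the 17 G2/M genes, 15 were shared with the fit without the block, and KIF20A and BIRC5 were new.

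Few reads stand behind UBE2C and CCNB2, with 65 and 9 over all libraries.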

Other observations

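p53 targets and genes of DNA damage repair, both tied to the cell cycle, were read beside the inhibitors. Of 25 p53 targets, 7 were called higher and 0 lower, with a median log2 fold change of 0.16, beside 8.22% and 4.68% of all genes tested. CCNG1, an atypical cyclin, averaged 55.4 ± 1.24 FPKM in fatty acid cells and 42.5 ± 2.53 FPKM in control cells (0.38 ± 0.06, adjusted p = 0.00809). RRM2B, the p53-induced subunit of ribonucleotide reductase, averaged 45.6 ± 1.79 FPKM in fatty acid cells and 36.8 ± 1.94 FPKM in control cells (0.31 ± 0.06, adjusted p = 0.0181). TIGAR, a regulator of glycolysis, and SFN, a 14-3-3 protein, had log2 fold changes of 0.66 ± 0.13 and 0.47 ± 0.10 (adjusted p = 0.02 and 0.0284). CDKN1A, itself a p53 target, was not called. The count was 1, namely CCNG1, when either fatty acid library 1 or 2 was left out, and 4 when control library 3 was. Without these libraries in turn, 230, 239 and 634 of all genes were called higher. The count of p53 targets was 12 by TPM, 4 by the median of ratios and 4 with nuclear reads. By quantiles it was 3, and it was 2 each with no filter and without the trend. In the same order, 2612, 779, 705, 758, 640 and 642 of all genes were called higher, against 1205 as reported.

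Of 16 checkpoint and repair genes, 3 were called higher and 0 lower, beside 8.22% and 4.68% of all genes tested, with a median of 0.32. The count was 9 by TPM, 10 by voom, 1 by the median of ratios, 1 with nuclear reads and 0 with no filter. Over all genes, these settings called 2612, 1846, 779, 705 and 640 genes higher, against 1205 as reported. ATR, the replication stress kinase, and BRCA2, a protein of homologous recombination, had log2 fold changes of 0.38 ± 0.10 and 0.58 ± 0.16 (adjusted p = 0.0474 and 0.0489). The calls of ATR and BRCA2 were lost whichever fatty acid library was left out, and also without control replicate 3.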
